A study of Homo sapiens with 24 samples.

Results

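Differentiated keratinocytes that had received spermidine and spermine were compared with keratinocytes that had received putrescine, each compound at a labelled 1 mM. The comparison used 8 of the 24 Illumina bead arrays of the series, 4 in each group, taken by their titles. The cells were N/TERT1, a telomerase-immortalized human keratinocyte line, so both groups come from a single line. Differentiation was started at high confluence by raising calcium to 1.2 mM, the polyamine was added at day 3, and total RNA was taken at day 6 in both groups. Below, SDSM stands for the spermidine/spermine cultures and PUT for the putrescine cultures. It is unclear from the labels if the 1 mM applies to spermidine and to spermine separately or to both together. Neither group received EGBG, the inhibitor of S-adenosylmethionine decarboxylase used elsewhere in the series. Another 4 arrays, of day 6 cultures grown in the same high calcium without any added compound, are given as a reference and are called day 6. The series record calls the 4 arrays of a group biological replicates, and since it names no separate cultures, p-values here reflect just the variation among these samples, part of which can be technical.

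Putrescine is a short diamine made from ornithine by ODC1 and is the precursor of the other polyamines. Spermidine is putrescine with an aminopropyl group added, and spermine carries a further one. The donor of these groups is S-adenosylmethionine after its decarboxylation by AMD1. Cells hold their polyamines within limits by adjusting ODC1 and AMD1, by antizymes that send ODC1 to the proteasome, by acetylation through SAT1 and by uptake and export. Spermidine is also the source of hypusine, a modified amino acid of the translation factor eIF5A. In the epidermis, keratinocytes leave the basal layer, stop dividing and build a cornified envelope, secreted lipids, proteases and antimicrobial proteins.

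The arrays carried 47304 probes, of which 11686 were tested because their detection p was under 0.01 on 4 or more of the 8 arrays. They stood for 7655 named genes. SDSM arrays detected 11557 ± 376 probes (SD, n = 4) and PUT arrays 11619 ± 552 (SD, n = 4), a difference within the spread of the arrays (two-sided exact permutation test, p = 0.857, where the smallest p that 4 against 4 allows is 0.0286). The mean background-subtracted signal was 505 ± 73 (SD, n = 4) intensity units with SDSM and 471 ± 46 (SD, n = 4) with PUT (two-sided exact permutation test, p = 0.543). All 8 keratinocyte markers on the array, among them KRT5, KRT14, KRT1, KRT10 and FLG, were detected on all 8 arrays. The melanocyte list had 8 of 9 markers undetected on all 8 arrays, the fibroblast list 10 of 14 and the immune list 9 of 14, and those detected on all 8 were PMEL, COL1A1, FAP, ACTA2, VIM, CD14, CD68, CD207 and HLA-DRA. Across tested probes, PUT arrays correlated with each other at 0.985 to 0.990 and SDSM arrays at 0.964 to 0.986. SDSM replicate 3 lay farthest from the others of its group, at 0.964 to 0.976.

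The cultures differed in many genes, with antimicrobial, protease inhibitor and late epidermal genes among the largest rises with SDSM and amino acid metabolism and cell cycle genes among the falls. Interferon-linked genes were found among both. Of 11686 probes, 1042 were higher with SDSM (8.92%) and 1280 were lower (11%) at an adjusted p under 0.05. Counted by gene, with the brightest probe for each, 729 of 7655 were higher (9.52%) and 966 were lower (12.6%). A change of at least 2-fold was called for 249 probes that were higher and 151 that were lower, and on 2037 of the called probes the 4 SDSM values and the 4 PUT values did not overlap. A call and a lack of overlap rest on the same values, so this count is no separate evidence. The median difference over all tested genes was -0.04 on the log2 scale, with a median SE of 0.18 over probes. Without SDSM replicate 3 the counts were 845 higher and 929 lower. Of the called probes, 299 have no gene symbol in the annotation and are not described further. In 4 genes, CSTF3, MAP3K20, PPP2R2B and SLC35H1, different probes were called in opposite directions. A single pair of compound treatments was compared, and differences below are log2 SDSM minus PUT ± SE from a fit to all arrays.

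**Figure D1:**
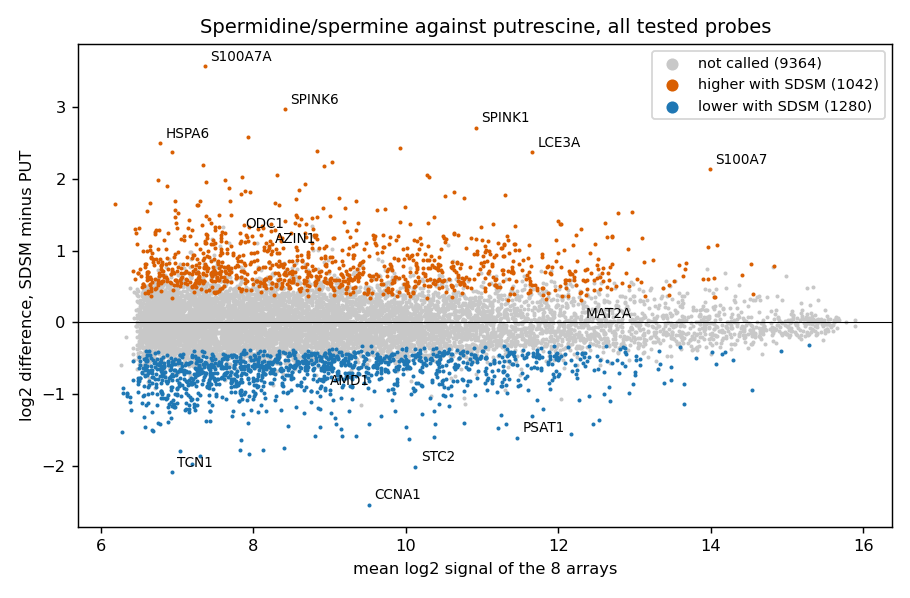
Log2 difference SDSM minus PUT (vertical axis) against the mean log2 signal of the 8 arrays (horizontal axis), 1 point for each of the 11686 tested probes, coloured by whether it was called at an adjusted p under 0.05. Of the labelled genes, SPINK6 lies at 2.97, CCNA1 at -2.54 and MAT2A, a bright gene, at -0.01. For probes undetected on all arrays of a group, S100A7A among them, the plotted difference is a fitted value and no measured fold.

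Within the polyamine pathway, transcripts of the enzyme that makes putrescine and of one of its stabilizers were higher with SDSM than with PUT. The transcript of the enzyme that supplies the aminopropyl groups was lower. The arrays measure RNA, and neither protein amounts nor enzyme activities were measured. Of 13 tested genes of polyamine synthesis and its regulation, 2 rose and 4 fell, where all tested genes gave 9.52% and 12.6%, and their median difference was -0.30, or -0.11 without SDSM replicate 1 and -0.17 without SDSM replicate 3. The count of falls was 2 of 13 when SDSM replicate 1, 2 or 3 or PUT replicate 1 or 3 was left out. ODC1, ornithine decarboxylase, had log2 signals of 8.44, 8.57, 8.52 and 8.23 with SDSM and 6.86, 7.30, 7.43 and 7.19 with PUT. Every SDSM array was above every PUT array, by 1.24 ± 0.19 (adjusted p = 9.57e-05), or 2.37-fold. Day 6 cultures read 8.55, 8.59, 8.98 and 8.70, so that the SDSM cultures lay at -0.27 (adjusted p = 0.307) against day 6 and the PUT cultures at -1.51 (adjusted p = 1.15e-05). AZIN1, the antizyme inhibitor that frees ODC1 from antizyme, read 8.69, 8.58, 8.80 and 8.83 with SDSM and 7.62, 8.002, 7.49 and 7.64 with PUT, again without overlap, and differed by 1.04 ± 0.14 (adjusted p = 3.01e-05). Both groups were below the day 6 arrays (9.86, 9.37, 9.73 and 9.52), the SDSM cultures at -0.89 (adjusted p = 7.15e-05) and the PUT cultures at -1.93 (adjusted p = 9.02e-09). The order of the AZIN1 levels was therefore day 6, SDSM, PUT, and for ODC1 the day 6 and SDSM cultures were not separated by the test.

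AMD1, S-adenosylmethionine decarboxylase, ran the other way. Its log2 signals were 8.51, 8.22, 8.38 and 8.74 with SDSM and 9.48, 9.35, 9.52 and 9.27 with PUT, which do not overlap, and the difference was -0.94 ± 0.32 (adjusted p = 0.0401). Day 6 cultures spread from 7.62 to 9.06, with SDSM at 0.06 (adjusted p = 0.903) and PUT at 1.01 (adjusted p = 0.0308) against them. The AMD1 call is close to the threshold: leaving out any of the 8 arrays except SDSM replicate 4 ended it, with an adjusted p of up to 0.0943 and a difference between -1.04 and -0.86. MAT2A and MAT2B are the catalytic and regulatory subunits of the enzyme that makes S-adenosylmethionine. MAT2A read 12.50, 11.76, 11.96 and 12.86 with SDSM and 12.42, 11.82, 12.46 and 12.44 with PUT, a difference of -0.01 ± 0.35 with a 95% interval of -0.74 to 0.72, and both groups were above day 6, at 1.62 (adjusted p = 0.0013) and 1.63 (adjusted p = 0.00259). MAT2B fell by 0.66 ± 0.11 (adjusted p = 1.65e-04), from 11.17, 11.10, 11.11 and 11.18 with PUT to 10.50, 10.60, 10.29 and 10.55 with SDSM. MTAP, which salvages the methylthioadenosine left over when spermidine and spermine are made, was lower, at -0.72 ± 0.16 (adjusted p = 0.00279). ARG2, the mitochondrial arginase that makes ornithine, was lower, at -0.72 ± 0.23 (adjusted p = 0.0282), a call that ended without SDSM replicate 1, 2 or 3 or PUT replicate 1 or 3 (adjusted p up to 0.111).

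The remaining synthesis genes were not called. SRM and SMS, the spermidine and spermine synthases, differed by -0.30 ± 0.17 and 0.11 ± 0.22, with 95% intervals of -0.66 to 0.06 and -0.35 to 0.58. The antizymes OAZ1 and OAZ2 gave 0.10 ± 0.13 and -0.39 ± 0.38, with intervals of -0.16 to 0.36 and -1.16 to 0.39. ARG1, the cytosolic arginase, gave 0.36 ± 0.26 (interval -0.18 to 0.91) and OAT, ornithine aminotransferase, -0.33 ± 0.18 (interval -0.71 to 0.04). None of the 8 tested genes of polyamine catabolism and transport was called. SAT1, which acetylates spermidine and spermine for export or oxidation, was bright in both groups, at 15.11, 14.94, 14.99 and 15.10 with SDSM and 15.37, 15.20, 15.05 and 15.13 with PUT, and its difference of -0.15 ± 0.13 had an interval of -0.42 to 0.11. SMOX, spermine oxidase, was above PUT on every SDSM array, by 0.55 ± 0.21 (adjusted p = 0.0681), and the cationic amino acid carrier SLC7A1 was below it on every array, at -0.47 ± 0.18 (adjusted p = 0.0618). With the replicate number as a block both were called, at adjusted p = 0.0355 for SMOX and 0.0264 for SLC7A1, beside counts of 1282 probes higher and 1569 lower in that fit. The other 5 members, SAT2, SLC3A2, ATP13A2, GPC1 and CAV1, lay between -0.31 and 0.26, and a second CAV1 probe was at 0.08 ± 0.25 (adjusted p = 0.868). The polyamine transporter ATP13A2 was detected on 4 SDSM arrays and on 1 PUT array, so its signal is close to background. Of the hypusine genes, EIF5A differed by -0.06 ± 0.18 (interval -0.42 to 0.31), DHPS, which starts hypusine formation, by -0.03 ± 0.16 (interval -0.35 to 0.29) and EIF5A2 by -0.51 ± 0.23 (interval -0.98 to -0.04). None was called. The EIF5A2 interval excludes 0 because the intervals are not adjusted for the number of probes and the calls are. EIF5A2 was called with the 8 arrays normalized and fitted alone (adjusted p = 0.0318) or only fitted alone (0.0352). Array weights (0.042) and a further deposited table (0.0329) also called it, and the replicate number as a block did not (0.114).

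**Figure D2:**
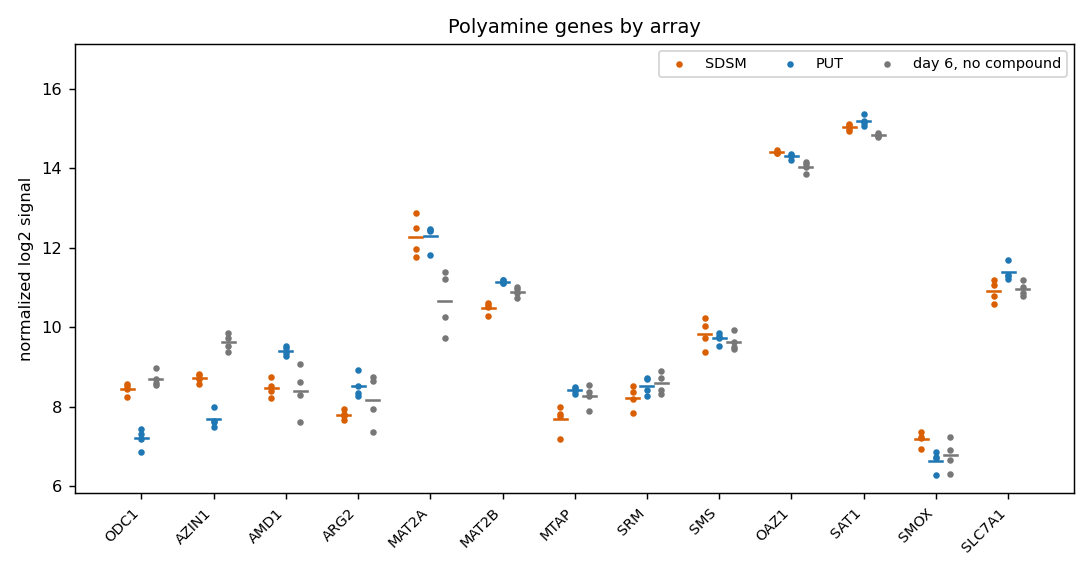
Normalized log2 signal (vertical axis) of 13 polyamine genes on each of 4 SDSM, 4 PUT and 4 day 6 arrays, with short lines at the group means. ODC1 and AZIN1 are lowest in every PUT array, AMD1 is highest there, and MAT2A lies higher in both treated groups than in day 6 cultures.

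The 10 largest rises with SDSM were S100A7A, SPINK6, SPINK1, HSPA6, LRRC20, SPINK7, EPN3, LCE3A, ANKRD1 and OASL. S100A7A, koebnerisin, an antimicrobial and chemotactic S100 protein, was undetected on all 4 PUT arrays and on all 4 day 6 arrays and read 9.73, 9.61, 7.47 and 9.79 with SDSM, at least 5.86-fold higher than with PUT (adjusted p = 2.48e-06). Such a bound, given wherever a gene was undetected on a whole group, sets the bright group's mean against the lowest signal detected on the dim group's arrays. A gene undetected on all SDSM or all PUT arrays passed the detection filter only through the other group. Its place in a list count is therefore no separate support. The adjusted p beside a bound, and a rank among the largest changes, belong to the fitted difference and do not test the bound. For S100A7A, SDSM replicate 3, at 7.47, lay far below the other 3 SDSM arrays and still above every PUT array. Its relative S100A7, psoriasin, was bright in both groups, at 15.13, 15.07, 14.85 and 15.18 with SDSM and 12.995, 12.95, 12.65 and 13.09 with PUT, a difference of 2.14 ± 0.35 (adjusted p = 1.68e-04). S100A12, calgranulin C, gave 2.03 ± 0.26 (adjusted p = 1.14e-05).

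Serine protease inhibitors of the SPINK family gave 3 of the 10. SPINK6, an inhibitor of the kallikreins that shed the outermost epidermal cells, read 9.45, 10.20, 10.06 and 9.87 with SDSM, 6.65, 7.32, 6.77 and 6.95 with PUT and 10.29, 10.38, 10.09 and 10.28 at day 6. The low group here was PUT: the difference was 2.97 ± 0.34 (adjusted p = 2.84e-06), with -0.37 (adjusted p = 0.439) for SDSM and -3.34 (adjusted p = 8.61e-07) for PUT against day 6, and a second SPINK6 probe gave 2.59 ± 0.32 (adjusted p = 7.38e-06). SPINK7 showed the same arrangement, 9.85, 10.001, 10.38 and 9.88 with SDSM against 7.76, 7.98, 7.51 and 7.34 with PUT, with SDSM at -0.02 and PUT at -2.40 against day 6 and a difference of 2.38 ± 0.26 (adjusted p = 2.20e-06). SPINK1, a trypsin inhibitor, instead stood out in the SDSM group, at 12.29, 12.06, 12.21 and 12.53 against 10.03, 8.81, 9.33 and 10.07 with PUT. It differed by 2.71 ± 0.45 (adjusted p = 1.84e-04), with SDSM at 2.04 and PUT at -0.67 from day 6.

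HSPA6, an inducible heat shock protein of the HSP70 family, was undetected on all PUT and all day 6 arrays and read 7.98, 8.08, 7.38 and 8.64 with SDSM. It passed the detection filter only through the SDSM arrays and was at least 2.67-fold higher there than with PUT. The adjusted p of 5.32e-08 belongs to the fitted difference and does not test that bound. ANKRD1, a nuclear ankyrin repeat protein induced by stress and by YAP, read 10.13, 10.19, 10.32 and 9.93 with SDSM and 8.53, 7.54, 7.73 and 7.82 with PUT, a rise of 2.24 ± 0.28 (adjusted p = 9.04e-06). LRRC20, a leucine-rich repeat protein, had the smallest adjusted p among these genes, at 11.20, 11.08, 11.32 and 10.94 against 8.88, 8.93, 8.51 and 8.48, a rise of 2.44 ± 0.19 (adjusted p = 3.59e-08), and its second probe gave 1.95 ± 0.22 (adjusted p = 2.59e-06). EPN3, an epsin of clathrin-mediated endocytosis, was undetected on all 4 PUT arrays and was at least 2.88-fold higher with SDSM (adjusted p = 3.84e-08). OASL, an interferon-induced protein related to the oligoadenylate synthetases, was detected on 1 PUT array and on 4 SDSM arrays and rose by 2.19 ± 0.26 (adjusted p = 4.65e-06). LCE3A, a late cornified envelope protein, read 12.91, 12.90, 12.67 and 12.87 with SDSM and 10.95, 10.14, 10.48 and 10.30 with PUT, a rise of 2.37 ± 0.30 (adjusted p = 1.14e-05).

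The 10 largest falls were CCNA1, TCN1, STC2, WNT10A, CMBL, GPX8, IFITM1, PSAT1, LGALS1 and SNORA12. CCNA1, cyclin A1, read 7.97, 8.35, 8.43 and 8.23 with SDSM and 10.73, 10.62, 11.14 and 10.66 with PUT, 5.82-fold higher with PUT, and differed by -2.54 ± 0.28 (adjusted p = 2.32e-06). Its SDSM level lay within the day 6 range (7.51, 8.07, 9.13 and 8.74) and its PUT level above it, at 2.43 against day 6. TCN1, the vitamin B12 carrier haptocorrin, was undetected on all 4 SDSM arrays and was at least 2.57-fold lower there than with PUT (adjusted p = 2.20e-06). CMBL, a hydrolase, read 6.99, 6.91, 6.69 and 7.14 with SDSM, 9.005, 8.501, 8.56 and 8.77 with PUT and 6.46, 6.57, 6.55 and 6.37 at day 6, where 2 arrays detected it, and differed by -1.78 ± 0.18 (adjusted p = 9.57e-07). Its SDSM values all lay above the day 6 values and below the PUT values, and against day 6 the differences were 0.44 (adjusted p = 0.0636) with SDSM and 2.22 (adjusted p = 2.42e-08) with PUT. SNORA12, a small nucleolar RNA, differed by -1.58 ± 0.30 (adjusted p = 6.69e-04), with PUT at 1.70 and SDSM at 0.12 against day 6.

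For WNT10A and GPX8 the PUT cultures lay near day 6 and the SDSM cultures below both. WNT10A, a Wnt ligand of skin and its appendages, read 6.97, 7.73, 6.67 and 6.74 with SDSM, 8.98, 8.86, 8.73 and 8.89 with PUT and 9.28, 8.81, 8.48 and 8.92 at day 6, a difference of -1.84 ± 0.31 (adjusted p = 2.66e-04). GPX8, a peroxidase of the endoplasmic reticulum, differed by -1.78 ± 0.24 (adjusted p = 2.34e-05), with SDSM at -1.48 and PUT at 0.29 against day 6, and its second probe gave -0.71 ± 0.19 (adjusted p = 0.00984). LGALS1, galectin-1, differed by -1.60 ± 0.30 (adjusted p = 5.82e-04) and read 8.70, 9.66, 10.36 and 9.53 with SDSM against 11.06, 10.86, 11.70 and 11.02 with PUT, at -1.78 and -0.18 against day 6. IFITM1, an interferon-induced membrane protein that blocks virus entry, differed by -1.75 ± 0.45 (adjusted p = 0.00793), with SDSM at -2.35 (adjusted p = 3.94e-04) and PUT at -0.60 (adjusted p = 0.37) against day 6. For all 10 falls and all 10 rises the 4 SDSM and 4 PUT values did not overlap, as the rule for naming them required.

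**Figure D3:**
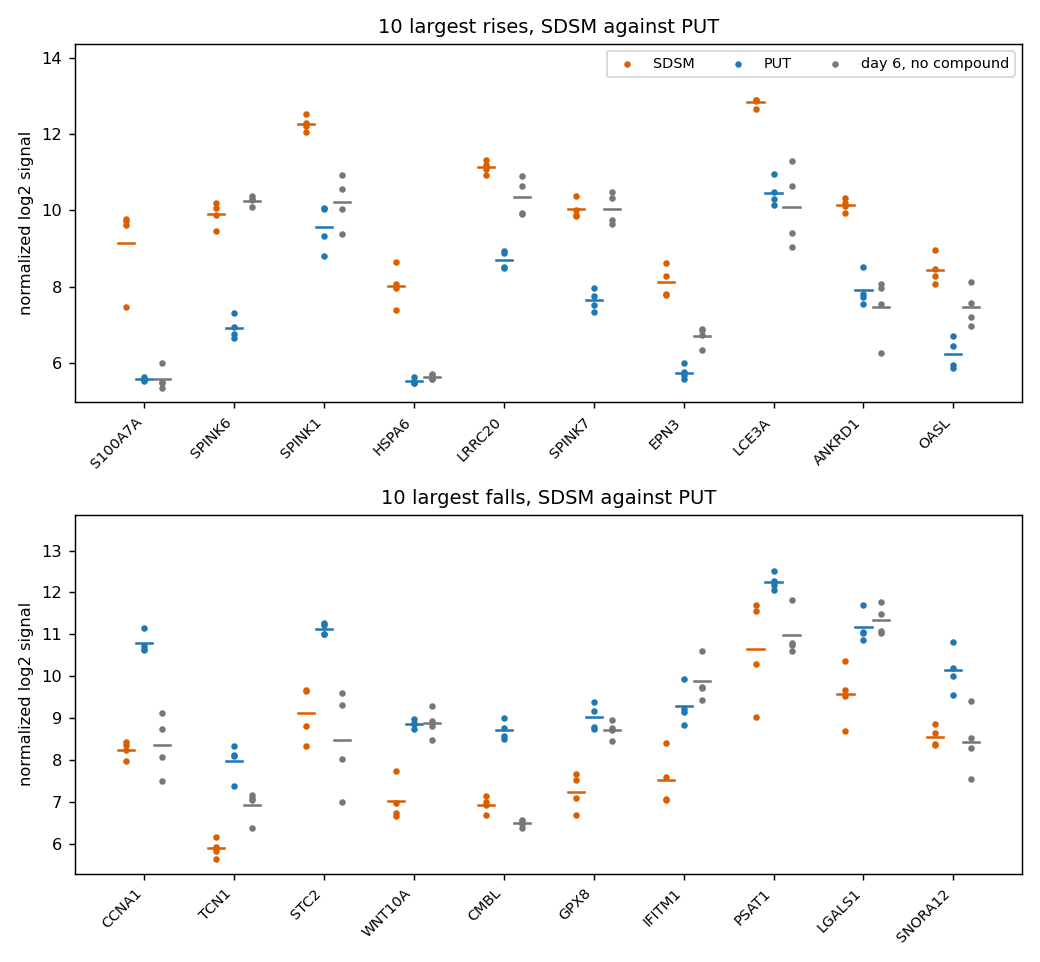
Normalized log2 signal (vertical axis) of the 10 largest rises (top) and 10 largest falls (bottom) on each SDSM, PUT and day 6 array, with short lines at the group means. S100A7A and HSPA6 lie near the bottom of the scale in PUT and day 6 cultures, SPINK6 and SPINK7 are low in PUT cultures alone of the 3 groups, and CCNA1 and CMBL are high in PUT cultures alone.

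Genes of late epidermal differentiation were more often higher than lower with SDSM, though most were not called. Of 49 tested cornified envelope genes, 16 rose, 3 fell and 30 were not called, against 9.52% and 12.6% of all genes, with a median difference of 0.44. The largest rises were LCE3A, LCE3C at 1.42 ± 0.24 (adjusted p = 2.56e-04), RPTN, repetin, at 1.37 ± 0.22 (adjusted p = 1.57e-04), and CDSN, the corneodesmosome protein corneodesmosin, at 1.21 ± 0.22 (adjusted p = 4.02e-04). LCE3C read 12.38, 12.32, 13.05 and 13.05 with SDSM and 11.60, 10.51, 11.55 and 11.47 with PUT. The rises also took in IVL, involucrin, at 0.78 ± 0.16 (adjusted p = 0.00131), TGM1 and TGM5, transglutaminases that cross-link the envelope, at 0.69 ± 0.22 (adjusted p = 0.0285) and 1.08 ± 0.17 (adjusted p = 1.57e-04), and HRNR, hornerin, at 0.85 ± 0.26 (adjusted p = 0.0247). The 3 that fell were SPRR3 at -0.99 ± 0.30 (adjusted p = 0.021), CRNN at -0.67 ± 0.20 (adjusted p = 0.0231) and SPRR4 at -0.65 ± 0.22 (adjusted p = 0.039), of which SPRR3 and CRNN are best known from internal, non-keratinizing epithelia. When 1 array was left out the list gave 10 to 17 rises, fewest without PUT replicate 2 or SDSM replicate 4, and 1 or 2 falls. Calls were lost for TGM1 without SDSM replicate 1, 2 or 3 or PUT replicate 1 or 3 (adjusted p up to 0.0785), for HRNR without SDSM replicate 3 or 4 or PUT replicate 1, 2 or 4 (adjusted p up to 0.108), for SPRR3 without SDSM replicate 1 or 4 or PUT replicate 2 (adjusted p up to 0.0588), for CRNN without SDSM replicate 2, 3 or 4 or PUT replicate 3 (adjusted p up to 0.085) and for SPRR4 without SDSM replicate 1, 2 or 3 or PUT replicate 1, 2, 3 or 4 (adjusted p up to 0.196). IVL, TGM1, TGM5, HRNR, SPRR3, CRNN and SPRR4 were chosen for naming after their values were seen. Among the keratinocyte markers, FLG, KRT10 and KRT5 had lower mean log2 signals with SDSM, at 14.88 against 15.03 with PUT, 14.74 against 14.87 and 11.13 against 11.86. KRT1 and DSG1 had higher ones, at 13.78 against 13.47 and 11.38 against 11.11. The values of FLG, KRT10, KRT5, KRT1 and DSG1 were also added after they were seen. They are group means given without an SE or a test.

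Enzymes of the barrier lipids gave 13 rises and 1 fall among 29 tested genes, where 9.52% of all genes rose and 12.6% fell, with a median of 0.44. PNPLA1, which joins linoleate to omega-hydroxy-ceramides, read 9.58, 9.70, 9.79 and 9.90 with SDSM and 8.23, 8.28, 8.27 and 8.25 with PUT, a rise of 1.48 ± 0.18 (adjusted p = 6.86e-06). ACSBG1, an acyl-CoA synthetase, rose by 1.37 ± 0.26 (adjusted p = 6.54e-04) and CYP4F22, the omega-hydroxylase of the same ceramides, by 1.09 ± 0.25 (adjusted p = 0.00314). SDR9C7, a dehydrogenase of the acylceramide pathway, rose by 1.33 ± 0.41 (adjusted p = 0.0253), which was lost without SDSM replicate 3 or 4 or PUT replicate 1 or 2 (adjusted p up to 0.115), while a second probe gave 1.29 ± 0.31 (adjusted p = 0.00435). The fall was ELOVL6, a fatty acid elongase, at -0.52 ± 0.15 (adjusted p = 0.017), named after its value was seen and lost without SDSM replicate 1 or 4 or PUT replicate 1 (adjusted p up to 0.0572), and with the replicate number as a block 2 fell. In PUT cultures PNPLA1, ACSBG1 and SDR9C7 lay at -0.74, -0.84 and -1.07 against day 6, and in SDSM cultures at 0.74, 0.53 and 0.26.

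Among epidermal proteases and their inhibitors, 12 of 30 rose (against 9.52% of all genes), none fell and 18 were not called, with a median of 0.49. Beside SPINK6 and SPINK7, the kallikreins KLK9 and KLK13, serine proteases of the upper epidermis, rose by 1.61 ± 0.29 (adjusted p = 4.42e-04) and 1.34 ± 0.17 (adjusted p = 1.14e-05). KLK13 read 8.76, 8.38, 8.71 and 9.28 with SDSM, 7.52, 7.14, 7.496 and 7.60 with PUT and 7.16, 6.82, 6.65 and 7.39 at day 6. KLK5 and KLK7, the main desquamation kallikreins, were not called, at 0.12 ± 0.14 and -0.06 ± 0.20, and were named after their values were seen. The stress keratin and antimicrobial list had 9 rises and no fall among 19 (against 9.52% and 12.6%), with the highest median of the lists, 0.66. Its members included S100A7A, S100A7 and S100A12 above, and DEFB103A, the gene of beta-defensin 3. DEFB103A read 13.85, 13.32, 13.37 and 14.40 with SDSM, 12.51, 11.21, 12.26 and 12.80 with PUT and 9.14, 10.26, 10.64 and 11.17 at day 6, a difference of 1.54 ± 0.46 (adjusted p = 0.0195). This call was lost without PUT replicate 2 or SDSM replicate 4 (adjusted p up to 0.0847). A second probe gave 1.53 ± 0.40 (adjusted p = 0.00853). DEFB103A has a near-identical copy, DEFB103B, and whether the probes tell them apart was not tested. Both compounds lay above day 6 for DEFB103A, SDSM at 3.43 (adjusted p = 7.73e-06) and PUT at 1.89 (adjusted p = 0.0059). With 1 array left out the antimicrobial list gave 6 to 8 rises, fewest without PUT replicate 1 or 2 or SDSM replicate 4.

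Of 24 transcription factors of differentiation, 5 rose and 2 fell (1 without SDSM replicate 4 or PUT replicate 2, 3 or 4), against 9.52% and 12.6% of all genes, with a median of 0.23. EHF, an epithelial ETS factor, rose by 1.17 ± 0.29 (adjusted p = 0.00678), PRDM1, BLIMP1 of the granular layer, by 1.07 ± 0.23 (adjusted p = 0.0022), OVOL1 by 0.97 ± 0.17 (adjusted p = 3.50e-04) and PPARD, a lipid-sensing nuclear receptor, by 0.70 ± 0.18 (adjusted p = 0.00889). A second PPARD probe gave 1.49 ± 0.29 (adjusted p = 9.40e-04) and a second PRDM1 probe 0.96 ± 0.24 (adjusted p = 0.00579). The falls were the Notch ligand JAG1 at -0.60 ± 0.20 (adjusted p = 0.0325), lost without SDSM replicate 1 or 4 or PUT replicate 2, 3 or 4 (adjusted p up to 0.121), and its Notch-pathway target HES1 at -0.49 ± 0.13 (adjusted p = 0.00919), and the remaining rise was KLF4, a factor of barrier formation, at 0.60 ± 0.21 (adjusted p = 0.0429), lost without SDSM replicate 1, 2, 3 or 4 or PUT replicate 1 or 3 (adjusted p up to 0.132); these 3 were named after their values were seen. The spinous and desmosome list gave 4 rises and 1 fall among 19, against 9.52% and 12.6% of all genes. CALML5, a calmodulin-like protein of the upper layers, rose by 1.35 ± 0.31 (adjusted p = 0.00356) and the desmosomal cadherin DSG3 by 0.81 ± 0.21 (adjusted p = 0.00896). DMKN, dermokine, rose by 0.81 ± 0.26 (adjusted p = 0.0302), with its call lost in 6 of the 8 omissions (all but SDSM replicate 2 and SDSM replicate 4, adjusted p up to 0.111). LGALS7, galectin-7, fell, from 13.26, 12.20, 13.18 and 13.13 with PUT to 11.85, 11.05, 11.14 and 11.53 with SDSM, a difference of -1.55 ± 0.33 (adjusted p = 0.00165). It has a near-identical copy, LGALS7B, and whether the probe tells them apart was not tested. Left out in turn, arrays SDSM 1 and 3 and PUT 1, 3 and 4 each brought the spinous rises down to 2, and the median of 0.24 was 0.16 without SDSM replicate 2 and 0.06 without SDSM replicate 3.

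**Figure D4:**
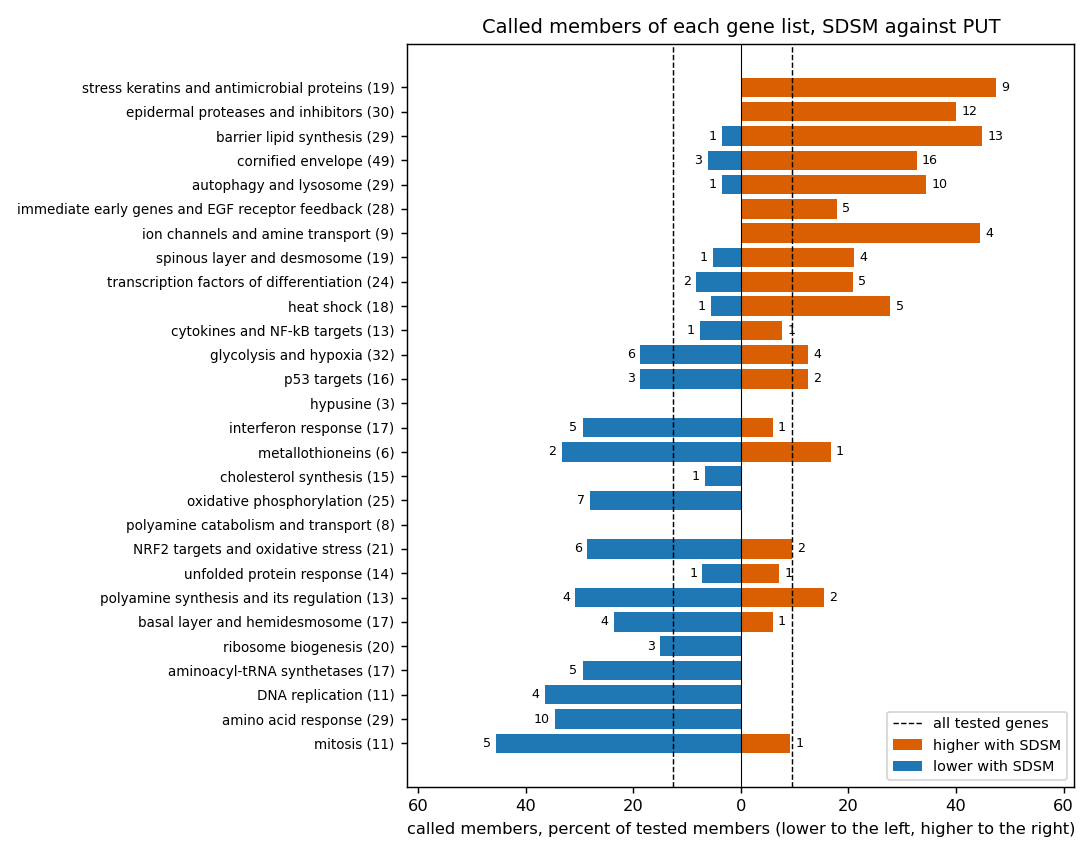
Called members of 28 gene lists in percent of the tested members (horizontal axis), higher with SDSM to the right and lower to the left, ordered by the median difference and with the number tested in brackets. Numbers at the bars are called genes, and dashed lines mark the 9.52% and 12.6% of all tested genes; the bars of stress keratins and antimicrobial proteins, epidermal proteases and barrier lipids extend to the right, and those of mitosis, amino acid response and DNA replication to the left.

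The genes that respond to amino acid shortage through ATF4, a list of transporters, amino acid synthesis enzymes and stress factors, contained 10 falls and no rise among 29 tested, where 12.6% of all genes fell, with 19 not called and a median of -0.63. STC2, a secreted glycoprotein, read 9.67, 8.80, 8.34 and 9.65 with SDSM and 11.01, 11.01, 11.26 and 11.23 with PUT, a difference of -2.01 ± 0.44 (adjusted p = 0.00255). PUT was at 2.65 (adjusted p = 2.55e-04) and SDSM at 0.64 (adjusted p = 0.292) against day 6, where the 4 arrays spread from 6.99 to 9.59. Transcripts of all 3 enzymes of serine synthesis fell. PHGDH, the first of them, read 12.44, 11.97, 11.97 and 12.13 with SDSM and 13.39, 13.06, 13.21 and 13.24 with PUT, a difference of -1.09 ± 0.24 (adjusted p = 0.00223), PSAT1 gave -1.61 ± 0.51 (adjusted p = 0.0287) and PSPH -1.03 ± 0.14 (adjusted p = 2.24e-05). PSAT1 spread widely with SDSM, at 11.71, 10.30, 9.04 and 11.55 against 12.28, 12.05, 12.52 and 12.18 with PUT, and its call ended without SDSM replicate 2 or 3 or PUT replicate 1 or 3, with an adjusted p of up to 0.141.

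CTH, cystathionine gamma-lyase, which makes cysteine, was undetected on all SDSM arrays and at least 1.78-fold lower there (adjusted p = 0.00104). It is among the 10 falls and passed the detection filter only through the PUT arrays. The transporters SLC7A5, SLC1A4, SLC1A5 and SLC6A9, which carry large neutral amino acids, small neutral amino acids, glutamine and glycine, fell, at -1.08 ± 0.24 (adjusted p = 0.00314), -0.85 ± 0.15 (adjusted p = 3.84e-04), -0.83 ± 0.20 (adjusted p = 0.00553) and -1.05 ± 0.24 (adjusted p = 0.00352). MTHFD2, a mitochondrial enzyme of the folate cycle, completed the 10 at -0.94 ± 0.20 (adjusted p = 0.00185). ATF4 itself was at -0.12 ± 0.20, and its stress-linked targets DDIT3, TRIB3 and CHAC1 were at -0.39 ± 0.46, -0.63 ± 0.33 and -0.28 ± 0.44, none of them called. Members outside the rule for naming, PSPH, MTHFD2, the 4 transporters, ATF4, DDIT3, TRIB3, CHAC1 and ASNS, were chosen after their values were seen. Relative to day 6 the list had a median of 0.76 with PUT and 0.10 with SDSM, 2 comparisons that share the day 6 arrays. Leaving out 1 array gave 9 to 13 falls, and the replicate number as a block gave 15.

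Enzymes that charge transfer RNAs, of which several are also targets of ATF4, had 5 falls and no rise among 17, where 12.6% of all genes fell, with a median of -0.36 that was -0.18 without SDSM replicate 3. IARS1, for isoleucine, read 9.10, 8.35, 8.15 and 9.30 with SDSM and 9.16, 9.28, 9.67 and 9.72 with PUT, where SDSM replicate 4 overlapped the PUT range, and differed by -0.73 ± 0.20 (adjusted p = 0.0131). AARS1, for alanine, read 12.47, 11.79, 11.29 and 11.93 and 12.52, 12.63, 12.58 and 12.61 without overlap and differed by -0.72 ± 0.22 (adjusted p = 0.0211). RARS1 differed by -0.44 ± 0.13 (adjusted p = 0.0142) and WARS1 by -0.49 ± 0.17 (adjusted p = 0.0439), while a second WARS1 probe gave -0.40 ± 0.20 (adjusted p = 0.166). The remaining call was NARS1 at -0.44 ± 0.15 (adjusted p = 0.0421), named after its value was seen and lost without SDSM replicate 2, 3 or 4 or PUT replicate 1, 2, 3 or 4 (adjusted p up to 0.121). The count rests on SDSM replicate 3: without it 1 enzyme of 17 was called. IARS1 was lost without SDSM replicate 2 or 3 (adjusted p up to 0.0665), AARS1 without SDSM replicate 3 (adjusted p = 0.100), and WARS1 without SDSM replicate 2 or 3 or PUT replicate 1, 3 or 4 (adjusted p up to 0.183).

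The element that ATF4 and C/EBP proteins bind in such genes was looked for, as the letters TGATGNAA on either strand, in the 250 bases before the transcription start, taken from RefSeq promoters on GRCh38.p14. Of 29 amino acid response genes 24 had a promoter in that table, and 3 held the letters (12.5%), ASNS, ATF3 and CHAC1, of which none was called without a block. Of 14 transfer RNA synthetase promoters 2 held them (14.3%), AARS1 and IARS1. Among all 27305 promoters of the same length the share was 3.19%, and among the 6342 of tested genes 1.56%. None of the 9 available promoters of amino acid response genes lower with SDSM held the letters, which says nothing about more distant sites. The AARS1 and IARS1 windows are shown because both genes fell, and that of ASNS, asparagine synthetase, because its nutrient-sensing element in human cells is the textbook example. ASNS differed by -1.07 ± 0.40 (adjusted p = 0.063), and with the replicate number as a block it was called, at adjusted p = 0.0174. The 3 windows were chosen after it was seen which promoters held the letters. Capitals mark the match, read as the reverse complement in AARS1 and IARS1. The windows are chr16:70289507-70289756, minus strand, for AARS1, chr9:92293698-92293947, minus strand, for IARS1, and chr7:97872409-97872658, minus strand, for ASNS.
AARS1: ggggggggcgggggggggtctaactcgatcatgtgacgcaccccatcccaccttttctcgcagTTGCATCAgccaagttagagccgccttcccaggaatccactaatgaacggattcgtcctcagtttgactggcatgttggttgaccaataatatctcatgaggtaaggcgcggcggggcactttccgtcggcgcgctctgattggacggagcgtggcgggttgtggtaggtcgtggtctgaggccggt
IARS1: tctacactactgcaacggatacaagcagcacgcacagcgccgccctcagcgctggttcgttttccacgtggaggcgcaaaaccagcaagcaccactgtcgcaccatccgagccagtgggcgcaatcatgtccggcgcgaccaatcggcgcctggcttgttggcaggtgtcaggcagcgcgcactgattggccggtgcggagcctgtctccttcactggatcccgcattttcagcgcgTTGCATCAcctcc
ASNS: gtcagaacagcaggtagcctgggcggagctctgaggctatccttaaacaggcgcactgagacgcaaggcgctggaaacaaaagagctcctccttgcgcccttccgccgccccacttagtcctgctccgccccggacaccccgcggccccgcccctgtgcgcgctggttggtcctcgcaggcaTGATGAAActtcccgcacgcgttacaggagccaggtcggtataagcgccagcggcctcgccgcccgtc
The match ends 179 bases before the start site in AARS1, 5 bases before it in IARS1 and 60 bases before it in ASNS.

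Genes of cell division that were called were lower with SDSM, apart from CDC20, and most of the mitosis genes were too dim to test. Of 34 mitosis genes 11 were tested, 5 fell and 1 rose, against 12.6% of all genes and 9.52%, and the median was -0.67. AURKA, a spindle pole kinase, read 6.90, 6.36, 6.07 and 6.65 with SDSM and 7.95, 7.74, 7.77 and 7.405 with PUT, a difference of -1.22 ± 0.23 (adjusted p = 6.76e-04), and its second probe gave -1.31 ± 0.23 (adjusted p = 2.80e-04). PRC1 and ASPM, proteins of the spindle, were undetected on all SDSM arrays and at least 1.82-fold and 1.61-fold lower (adjusted p = 0.00176 and 0.00526). Both passed the detection filter only through the PUT arrays, where they are high. They are among the 5 falls, so that count is in part set by the filter. PTTG1, securin, and UBE2C, a ubiquitin-conjugating enzyme of mitosis, were lower, at -0.89 ± 0.23 (adjusted p = 0.00887) and -0.67 ± 0.22 (adjusted p = 0.0306), UBE2C being lost without SDSM replicate 1, 3 or 4 or PUT replicate 1, 3 or 4 (adjusted p up to 0.0812), and both were named after their values were seen. CDC20, an activator of the anaphase-promoting complex, rose instead, at 10.22, 9.40, 9.65 and 9.85 with SDSM, 9.01, 8.84, 8.64 and 8.88 with PUT and 7.99, 8.07, 7.29 and 8.08 at day 6, by 0.94 ± 0.27 (adjusted p = 0.0164), a call lost without SDSM replicate 1 or PUT replicate 3 (adjusted p up to 0.0604).

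In DNA replication 4 of 11 tested genes fell and none rose, where 12.6% of all genes fell, with a median of -0.60 that was -0.37 without SDSM replicate 3, and 6 fell with the replicate number as a block. RFC4, a clamp loader subunit, differed by -1.02 ± 0.21 (adjusted p = 0.00125) and on a second probe by -0.77 ± 0.20 (adjusted p = 0.00872), TYMS, thymidylate synthase, by -0.87 ± 0.15 (adjusted p = 3.44e-04), the helicase subunit MCM6 by -0.74 ± 0.15 (adjusted p = 0.00139) and the clamp PCNA by -0.66 ± 0.18 (adjusted p = 0.0101). TYMS read 8.14, 7.99, 8.21 and 8.20 with SDSM, 8.996, 9.10, 9.12 and 8.80 with PUT and 8.70, 8.63, 8.67 and 8.55 at day 6, SDSM below both. Ribosome biogenesis genes had 3 falls among 20, a share near the 12.6% of all genes, with a median of -0.34. All 20 differences were negative, where the median over all tested genes was -0.04. The 3 falls were FBL, fibrillarin, at -0.59 ± 0.13 (adjusted p = 0.00225), NOLC1 at -0.67 ± 0.22 (adjusted p = 0.0332) and WDR12 at -0.53 ± 0.18 (adjusted p = 0.0352). The count was 1 without SDSM replicate 2, PUT replicate 2 or PUT replicate 3. NOLC1 was lost in 5 of the 8 omissions and WDR12 in 6 (adjusted p up to 0.11 and 0.104), and a second WDR12 probe gave -0.23 ± 0.21 (adjusted p = 0.482). Basal layer and hemidesmosome genes had 4 falls and 1 rise among 17 (against 12.6% and 9.52% of all genes), with 2 falls without PUT replicate 1 or SDSM replicate 4 and 2 rises with the replicate number as a block. KRT14, the basal keratin, read 12.92, 13.14, 13.12 and 12.76 with SDSM and 13.59, 13.78, 13.64 and 13.51 with PUT, a difference of -0.65 ± 0.18 (adjusted p = 0.0147), lost without SDSM replicate 4 (adjusted p = 0.053). DST, a hemidesmosome linker, was at -0.60 ± 0.17 (adjusted p = 0.0146), lost without SDSM replicate 3 or PUT replicate 1 (adjusted p up to 0.0606), and a second probe of it gave -0.56 ± 0.15 (adjusted p = 0.0093). CD151, a tetraspanin of hemidesmosomes named after its value was seen, was at -0.42 ± 0.11 (adjusted p = 0.0101).

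Lysosome and autophagy genes had 10 rises and 1 fall among 29, where 9.52% of all genes rose and 12.6% fell, with a median of 0.40. GPNMB, a lysosomal membrane glycoprotein, read 12.05, 10.96, 10.63 and 11.92 with SDSM and 9.72, 9.31, 9.43 and 10.08 with PUT, a rise of 1.76 ± 0.31 (adjusted p = 3.84e-04), and a second probe gave 1.74 ± 0.26 (adjusted p = 7.42e-05). MCOLN1, the lysosomal calcium channel, rose by 1.00 ± 0.18 (adjusted p = 4.01e-04), the protease CTSB by 0.97 ± 0.19 (adjusted p = 9.28e-04), or on a second probe by 1.37 ± 0.21 (adjusted p = 1.12e-04), and MAP1LC3A, which coats autophagosomes, by 0.93 ± 0.20 (adjusted p = 0.00218). Against day 6, GPNMB, MCOLN1 and CTSB lay at 1.02, 1.04 and 1.15 with SDSM and at -0.74, 0.04 and 0.17 with PUT. The fall was ATG5, which helps attach LC3 to membranes, at -0.57 ± 0.18 (adjusted p = 0.0258), named after its value was seen and lost without SDSM replicate 1 or PUT replicate 1, 2 or 3 (adjusted p up to 0.0947). With 1 array left out the rises numbered 7 to 9, fewest without PUT replicate 3.

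Heat shock genes gave 5 rises and 1 fall among 18, where 9.52% of all genes rose and 12.6% fell, with a median of 0.11 that was -0.00382 without SDSM replicate 3 and 0.161 without SDSM replicate 2. The small heat shock protein HSPB8 read 11.30, 11.13, 11.44 and 11.32 with SDSM and 10.27, 10.45, 10.07 and 10.28 with PUT, a rise of 1.03 ± 0.17 (adjusted p = 1.52e-04), and CRYAB, alpha-B crystallin, rose by 0.97 ± 0.27 (adjusted p = 0.0139). CRYAB was at -0.05 with SDSM and -1.02 with PUT against day 6. DNAJB1 and BAG3, co-chaperones of HSP70, rose by 0.65 ± 0.18 (adjusted p = 0.0146) and 0.58 ± 0.18 (adjusted p = 0.0281), with DNAJB1 lost without SDSM replicate 3 or PUT replicate 1 (adjusted p up to 0.059) and BAG3 without SDSM replicate 3 or 4 or PUT replicate 1 or 3 (adjusted p up to 0.0787). HSPH1, a nucleotide exchange factor of HSP70 named after its value was seen, rose by 0.49 ± 0.15 (adjusted p = 0.0227), lost without SDSM replicate 1 or 4 or PUT replicate 2 or 3 (adjusted p up to 0.0843). The fall was HSPD1, a mitochondrial chaperonin, at -0.52 ± 0.14 (adjusted p = 0.0112), named after its value was seen. HSPA6, among the largest rises, is not on this list. The rises numbered 3 without PUT replicate 1 or 3 or SDSM replicate 3 or 4. In the unfolded protein response EDEM1 rose by 0.76 ± 0.17 (adjusted p = 0.00229) and HSP90B1 fell, at -0.56 ± 0.17 (adjusted p = 0.0236), the 2 calls among 14 (shares below those of all genes), the HSP90B1 call being lost without SDSM replicate 4 or PUT replicate 1 or 2 (adjusted p up to 0.101), and with the replicate number as a block 2 fell.

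NRF2 targets had 2 rises and 6 falls among 21, against 9.52% and 12.6% of all genes. AKR1C3, an aldo-keto reductase, read 11.69, 11.63, 11.67 and 11.99 with SDSM, 13.38, 13.01, 13.12 and 13.11 with PUT and 11.91, 11.89, 12.02 and 11.96 at day 6, a difference of -1.41 ± 0.26 (adjusted p = 6.41e-04) in which PUT was the group apart from day 6, at 1.21. AKR1B10 and CBR1, carbonyl reductases, differed by -1.03 ± 0.27 (adjusted p = 0.0094) and -1.08 ± 0.25 (adjusted p = 0.00354), with SDSM at -1.88 and -1.51 and PUT at -0.86 and -0.44 against day 6. GCLM, which makes glutathione with its catalytic partner, gave -1.005 ± 0.18 (adjusted p = 4.48e-04), while its second probe gave -0.30 ± 0.25 (adjusted p = 0.456). The 2 rises were HMOX1, haem oxygenase, at 0.93 ± 0.27 (adjusted p = 0.0172), and SRXN1 at 0.53 ± 0.15 (adjusted p = 0.013), both named after their values were seen, and HMOX1 was lost without SDSM replicate 4 or PUT replicate 2 (adjusted p up to 0.072). Of 6 metallothionein-list genes MT1F and MT1G fell, at -1.37 ± 0.18 (adjusted p = 1.89e-05) and -0.71 ± 0.18 (adjusted p = 0.0072), and the zinc exporter SLC30A1 rose by 1.06 ± 0.19 (adjusted p = 3.95e-04). Of all genes 12.6% fell and 9.52% rose. The median of this list was -0.11 and ran from -0.56 to 0.23 when 1 array was left out. The MT1 genes are near-identical copies, and whether their probes tell them apart was not tested.

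Immediate early and EGF receptor feedback genes had 5 rises and no fall among 28, where 9.52% of all genes rose, with a median of 0.33. EGR3 rose by 1.17 ± 0.26 (adjusted p = 0.0024) and the AP-1 subunits FOSL1 and FOSL2 by 1.03 ± 0.15 (adjusted p = 6.53e-05) and 0.90 ± 0.16 (adjusted p = 4.26e-04). FOSL1 read 8.16, 7.89, 8.23 and 8.07 with SDSM, 7.09, 6.82, 7.24 and 7.09 with PUT and 7.38, 6.94, 7.06 and 7.37 at day 6. EREG, epiregulin, rose by 0.59 ± 0.17 (adjusted p = 0.0184), with overlapping groups, and was lost without SDSM replicate 1 or 4 or PUT replicate 1 or 3 (adjusted p up to 0.0771). Of the ion channel list 4 of 9 rose (against 9.52% of all genes) and none fell. These were all 3 subunits of the epithelial sodium channel, SCNN1A by 0.86 ± 0.22 (adjusted p = 0.00752), SCNN1G by 0.82 ± 0.17 (adjusted p = 0.00132) and SCNN1B by 0.52 ± 0.18 (adjusted p = 0.0435), and the potassium channel KCNK6 by 0.74 ± 0.14 (adjusted p = 6.02e-04). The SCNN1B groups overlapped and its call ended without SDSM replicate 2, 3 or 4 or PUT replicate 1 or 2 (adjusted p up to 0.173); a second KCNK6 probe was at 0.46 ± 0.26 (adjusted p = 0.241).

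Interferon-induced genes went both ways, with 5 falls and 1 rise, OASL, among 17 (against 12.6% and 9.52% of all genes) and a median of -0.09 that was -0.17 without SDSM replicate 2 and -0.05 without PUT replicate 2. MX1, an antiviral GTPase, read 7.72, 8.18, 7.73 and 7.29 with SDSM, 8.75, 10.07, 9.33 and 8.53 with PUT and 10.10, 10.63, 10.33 and 10.05 at day 6, a difference of -1.44 ± 0.37 (adjusted p = 0.00763). Both groups were below day 6, SDSM at -2.55 (adjusted p = 1.96e-05) and PUT at -1.11 (adjusted p = 0.0371). OAS2 gave -1.25 ± 0.33 (adjusted p = 0.00881) and was detected on 1 SDSM array. IFIT1 was undetected on all SDSM arrays and passed the detection filter only through the PUT arrays. It was at least 1.47-fold lower (adjusted p = 0.0247), a call lost without SDSM replicate 1 or 4 or PUT replicate 2 or 3 (adjusted p up to 0.104). Without PUT replicate 2 or 3 the list gave 3 falls. Of 13 cytokine and NF-kB genes, IL1B fell and TNFAIP3, an inhibitor of NF-kB, rose, shares below the 12.6% and 9.52% of all genes. IL1B, interleukin-1 beta, read 9.13, 8.97, 9.28 and 9.73 with SDSM, 10.73, 10.51, 11.18 and 10.49 with PUT and 8.66, 8.65, 9.34 and 9.06 at day 6, a difference of -1.45 ± 0.25 (adjusted p = 2.91e-04) in which PUT was the group apart. TNFAIP3 differed by 1.19 ± 0.27 (adjusted p = 0.00344), with SDSM at 1.19 and PUT at -0.00199 against day 6.

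Set beside day 6, the 2 treatments placed the lists differently, and because both use the same day 6 arrays the values are given side by side without a test. Barrier lipid genes had a median of 0.29 with SDSM and -0.25 with PUT, proteases and inhibitors 0.39 with SDSM and -0.04 with PUT, the antimicrobial list 0.01 with SDSM and -0.25 with PUT and lysosome genes 0.23 with SDSM and -0.07 with PUT. The cornified envelope median was above day 6 in both, at 0.66 with SDSM and 0.35 with PUT. For DNA replication the medians were -0.39 with SDSM and 0.28 with PUT, and for mitosis -0.26 with SDSM and 0.35 with PUT. Averaged over its members, the barrier lipid list had log2 signals of 10.12, 10.16, 10.11 and 10.12 with SDSM, 9.56, 9.67, 9.66 and 9.77 with PUT and 9.89, 9.85, 9.62 and 9.94 at day 6. The amino acid response list averaged 10.11, 9.61, 9.60 and 10.02 with SDSM and 10.41, 10.39, 10.59 and 10.54 with PUT, against 9.37, 9.60, 10.12 and 9.999 at day 6. For both lists the SDSM and PUT arrays did not overlap. The antimicrobial list averaged 12.52, 12.49, 12.48 and 12.62 with SDSM and 11.72, 11.60, 11.73 and 11.77 with PUT. At day 6 it averaged 11.86, 12.02, 11.94 and 12.11, between the PUT and SDSM values, although its median with SDSM was 0.01 against day 6.

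**Figure D5:**
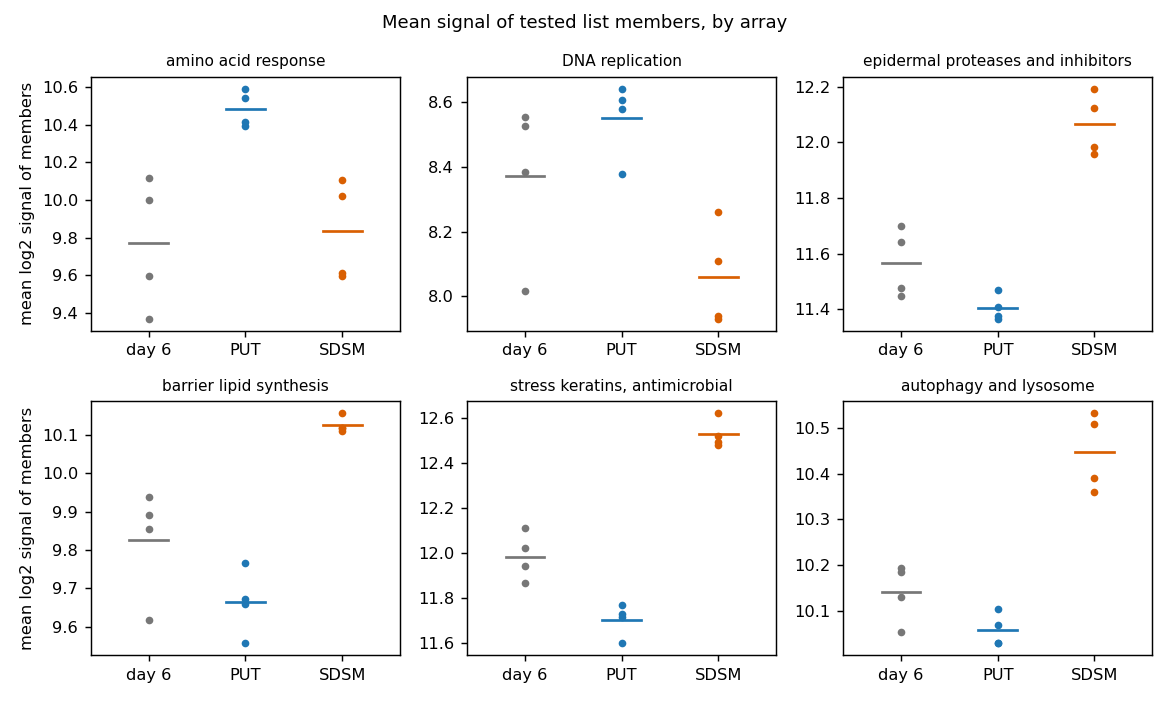
Mean normalized log2 signal of the tested members of 6 lists (vertical axes, each with its own range that does not start at 0) on each of the 4 day 6, 4 PUT and 4 SDSM arrays, with lines at the group means. SDSM arrays lie above all PUT arrays for the 4 differentiation and lysosome lists and below them for amino acid response and DNA replication. For amino acid response, day 6 arrays overlap the SDSM range. For DNA replication they overlap both ranges, at 8.02, 8.53, 8.55 and 8.38, against 7.93 to 8.26 with SDSM and 8.38 to 8.64 with PUT.

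Of the tested markers of other cell types, ACTA2 and CD14 were called, both lower with SDSM, where 12.6% of all genes fell. ACTA2, smooth muscle actin, fell, from 8.14, 8.22, 8.07 and 8.04 with PUT to 6.95, 7.51, 7.56 and 7.11 with SDSM, a difference of -0.84 ± 0.15 (adjusted p = 4.99e-04), the 1 call among 4 tested fibroblast markers, and CD14 fell by 0.99 ± 0.31 (adjusted p = 0.026) among 5 tested immune markers, lost without SDSM replicate 2 or 3 or PUT replicate 1 or 4 (adjusted p up to 0.123). The summed signal of the 14 fibroblast markers was 1085 to 1385 with SDSM and 1046 to 1267 with PUT, that of the 14 immune markers 2478 to 5293 and 3745 to 4225, and that of the 9 melanocyte markers 375 to 584 and 372 to 521. Their part in the results above was not tested. In bulk RNA, fewer cells of a type and less RNA per cell cannot be told apart.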

How the data were processed

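RNA of N/TERT1 keratinocytes had been labelled and hybridised to Illumina bead arrays. The submitters' processing notes name GenomeStudio, with settings not given in the sources used here. In the deposited series matrix every probe has a linear intensity on every array, background-subtracted and not normalized between arrays, as its values below 0 and unequal distributions show. A further deposited table gives, per the file headers, a detection p-value per probe on every array, which was used, and intensities floored at 40 (65.7% of values), some of them for probes bright in the series matrix. How that table was processed is not known here, and its intensities were used only as an alternative. Rank correlations matched each of its 24 detection p columns to its own array. Its intensity columns were assigned by their titles alone.

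Groups came from the sample titles. Intensities of the 24 arrays were normalized by neqc (limma 3.58.1, R 4.3.3; offset 16, quantile, log2), and lmFit and eBayes were run once over the 6 groups, with 18 residual degrees of freedom. The contrast SDSM minus PUT was two-sided, with Benjamini-Hochberg adjustment over 11686 probes and a threshold of 0.05. The brightest probe over the 8 arrays stands for a gene. Probes were named from GEO's platform annotation, in which 30102 probes have 1 symbol, 8 have several and 17194 have none. A gene undetected on a whole group has a bound, set against the lowest detected signal. If that group is SDSM or PUT, the gene passed the detection filter only through the other. The procedure was also run on simulated data with independent noise on every array. Those data lacked the shared deviations of same-numbered arrays, so the run cannot vouch for the calls here.

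Members and the 31 gene lists (794 genes, 539 tested) were chosen with earlier results of these data known. Named genes are those of the polyamine and hypusine lists, the 10 largest rises and falls whose arrays do not overlap, up to 4 called members of each list by size (or the 2 brightest), and genes whose probes disagree; others are marked in the text. Replicate numbers come from the titles, and arrays of the same number deviated together (r = 0.370, 0.326, 0.335 and 0.217 for numbers 1 to 4). They were taken as paired in an alternative fit with the number as a block, which called 1282 probes higher and 1569 lower. The other alternatives were no background correction, median scaling, normalizing or fitting the 8 arrays alone, no filter or detection on all 8 arrays, 1 probe a gene, an intensity trend, array weights, the other deposited table, and each of the 8 arrays left out.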

Additional observations from a re-analysis of the deposited data

Results flagged for a closer look

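Among 262 sets of 4 arrays, 1 set for each named gene and group, 13 had a single array far from the other 3 by Dixon's criterion, and chance alone gives about 1 in 20. S100A7A read 7.47 on SDSM replicate 3, where the other 3 arrays read 9.61 to 9.79, and LCE3A read 12.67 there, where the others read 12.87 to 12.91. EIF5A read 11.28 on the same array, against 11.65 to 11.72. RPTN read 13.06 on SDSM replicate 1, against 12.56 to 12.62, and RFC4 7.34 on SDSM replicate 4, against 6.84 to 6.92.

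In the PUT group, replicate 2 was low for MAT2A at 11.82 (others 12.42 to 12.46), for LCE3C at 10.51 (others 11.47 to 11.60) and for LGALS7 at 12.20 (others 13.13 to 13.26), and high for FBL at 10.12 (others 9.83 to 9.85). PUT replicate 1 was low for DSG3 at 9.84 (others 10.05 to 10.08) and high for P4HA1 at 10.19 (others 9.88 to 9.90). PUT replicate 4 was low for RARS1 at 11.58 (others 11.86 to 11.91) and for PLK3 at 5.94 (others 6.39 to 6.41), where PLK3 was undetected on all PUT arrays. The cause of these single values was not tested.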

How the results depend on the processing

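Across 19 alternative settings the number of probes higher with SDSM stayed within 1.5 times the 1042 reported, and that of lower probes did so in all but 1. In the other deposited table, whose values are floored at 40, 758 were higher and 685 lower, 53.4% of the calls were kept in the same direction, and 189 of the higher and 21 of the lower calls had no value because all 8 arrays were at the floor. Leaving out 1 array gave 706 to 952 higher and 918 to 1179 lower probes, the fewest higher without PUT replicate 3 and the fewest lower without PUT replicate 1. With the replicate number as a block, 1282 were higher and 1569 lower, and of the genes named by rule no call but those of SMOX and SLC7A1 changed. Of 2467 values of named genes under these settings, 2247 kept their call, 209 lost it and 11 gained one, and none that was called on both sides turned its direction; 25 named genes had no value in the other table because all 8 arrays were at the floor. The floor there does not mean a dim probe: the 456 tested probes held at 40 are so on all 24 arrays, 290 of them were detected on all 8 arrays, and 448 were undetected on all 4 undifferentiated arrays. Of the named genes 21 were at the floor and detected on all 8 arrays, among them LCE3A, DEFB103A, LGALS7, RPTN and GPNMB, so the 2 deposited tables disagree on these genes. The median of the heat shock list, 0.11, ran from -0.00382 without SDSM replicate 3 to 0.161 without SDSM replicate 2. Precision is limited by 4 arrays a group. Slide as a block was not run because the files give no slide.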

Other observations

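Genes of energy metabolism were called in both directions. Of 25 tested oxidative phosphorylation genes 7 fell and none rose with SDSM, where 12.6% of all genes fell, with a median of -0.18 that was -0.12 without PUT replicate 3, and 4 fell without PUT replicate 1, 2 or 3 or without SDSM replicate 4. ATP5MC1, a subunit of the ATP synthase ring, read 9.87, 10.02, 9.36 and 9.80 with SDSM and 10.61, 10.64, 10.91 and 10.35 with PUT, a difference of -0.86 ± 0.17 (adjusted p = 0.0011). NDUFB3 and NDUFB5, subunits of complex I, differed by -0.60 ± 0.14 (adjusted p = 0.00452) and -0.58 ± 0.12 (adjusted p = 0.00191), and ATP5F1C by -0.48 ± 0.17 (adjusted p = 0.0462), a call that each of the 8 omissions ended (adjusted p up to 0.122). Glycolysis and hypoxia genes gave 4 rises and 6 falls among 32, shares near the 9.52% and 12.6% of all genes, with 2 rises without PUT replicate 1, 2 or 3 and 3 falls without PUT replicate 1 or SDSM replicate 4. CA12, a carbonic anhydrase, read 9.60, 9.68, 9.91 and 9.52 with SDSM and 11.10, 11.17, 11.14 and 10.95 with PUT, a difference of -1.41 ± 0.21 (adjusted p = 6.53e-05), and its second probe gave -1.37 ± 0.22 (adjusted p = 1.45e-04). SLC2A3, a glucose transporter, was at -0.85 ± 0.18 (adjusted p = 0.00205), with both groups above day 6 (0.73 with SDSM and 1.57 with PUT). ARRDC4, a glucose-responsive arrestin, rose by 1.32 ± 0.27 (adjusted p = 0.00135), and PUT stood farther below day 6 (-1.90) than SDSM (-0.59). P4HA1, a collagen prolyl hydroxylase, was at -0.92 ± 0.28 (adjusted p = 0.0244), lost without SDSM replicate 1 or 4 or PUT replicate 1 (adjusted p up to 0.0726).

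Cholesterol synthesis genes had 1 call among 15, a share below that of all genes, MSMO1, which fell, at -0.52 ± 0.17 (adjusted p = 0.0329), while its other probes gave -0.25 ± 0.37 (adjusted p = 0.701) and 0.26 ± 0.19 (adjusted p = 0.357), and the call ended without SDSM replicate 3 or 4 or PUT replicate 1 or 2 (adjusted p up to 0.127). Of 16 p53 targets 2 rose and 3 fell, shares near the 9.52% and 12.6% of all genes, or 1 fell without SDSM replicate 2 or 4. SERTAD1 was higher by 0.60 ± 0.13 (adjusted p = 0.00221). PLK3 was undetected on all PUT arrays and passed the detection filter only through the SDSM arrays. It was at least 1.25-fold higher (adjusted p = 0.0186), a call lost without SDSM replicate 3 or PUT replicate 4 (adjusted p up to 0.0898). PLK2 was at -0.71 ± 0.20 (adjusted p = 0.0144), lost without SDSM replicate 4 or PUT replicate 3 (adjusted p up to 0.061), and XPC, a DNA damage sensor, at -0.50 ± 0.15 (adjusted p = 0.0243), lost without SDSM replicate 2 or 3 or PUT replicate 1 or 4 (adjusted p up to 0.107). TNFRSF10B, a death receptor named after its value was seen, was at -0.47 ± 0.15 (adjusted p = 0.0296), lost without SDSM replicate 1, 2 or 4 or PUT replicate 2 (adjusted p up to 0.127). Of the basal genes, COL7A1, anchoring fibril collagen, was at -0.56 ± 0.18 (adjusted p = 0.0332) and ITGA2, an integrin, at 0.61 ± 0.18 (adjusted p = 0.0217), both with overlapping groups. COL7A1 was lost without SDSM replicate 1 or 4 or PUT replicate 1, 2 or 4 (adjusted p up to 0.142), and ITGA2 without SDSM replicate 3 or 4 or PUT replicate 1 or 2 (adjusted p up to 0.0887). PMEL, the 1 tested melanocyte marker, differed by 0.09 ± 0.20 (adjusted p = 0.819).

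The AP-1 letters TGANTCA, on either strand of the 250 bases before the start, were in 45 of 597 promoters of genes higher with SDSM (7.54%), in 34 of 801 of genes lower with SDSM (4.24%), in 292 of 6342 of tested genes (4.6%) and in 1801 of 27305 of all genes (6.6%). The shares are a description of these windows, and no test was made.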
